A study of Mus musculus with 13 samples.

Results

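The integrin family was examined through 10 of its chains in mouse ES cell-derived haemangioblasts and haemogenic endothelium: Itga2b, Itga3, Itga4, Itga5, Itga6, Itga8 and Itgav, which encode α chains, and Itgb1, Itgb3 and Itgb5, which encode β chains. The family was singled out because Itga8 stood so far higher in Lmo2-/- than in WT haemogenic endothelium, so that comparison is described here and not tested. All 10 genes were found, each in 1 row of the 45250 in the expression table, and all 10 were among the 13802 genes that passed the filter on low values. RNAseq libraries had been made from Flk-1+ cells, which hold the haemangioblast and were sorted on Flk-1, and from HE1, the first stage of haemogenic endothelium, sorted as Tie2+, Kit+ and CD41-. There were 3 Flk-1+ libraries each of WT, Lmo2-/- and Tal1-/- cells and 2 HE1 libraries each of WT and Lmo2-/- cells, 13 in all. LMO2 and TAL1 are partners in a transcription factor complex needed to make blood, and the study asked what is lost without LMO2. WT cells were the CCB ES line, and the methods name 1 ES line for each knockout, so a difference between genotypes cannot be told apart from a difference between lines. P-values then measure only the spread between differentiations of 1 line.

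Integrins are receptors in the plasma membrane, each made of 1 α and 1 β chain, that hold cells to the extracellular matrix or to other cells and link it through talin and kindlin to actin. The β1 chain, encoded by Itgb1, is the common partner of the α3, α4, α5, α6 and α8 chains and one of several partners of αv. The α8 chain is known to pair with β1 alone and to bind nephronectin, tenascin C and fibronectin, and is best known from kidney mesenchyme and smooth muscle. In blood development, α2b (CD41) marks the first committed progenitors and platelets, and α4 and α5 serve homing and adhesion of progenitors to stroma.

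In the annotation of mouse genome GRCm38, Itga8 (row XLOC_020266) lies at chr2:12106632-12301922 on the minus strand, Itgb1 (XLOC_038292) at chr8:128685654-128733200 on the plus strand and Itgb5 (XLOC_013965) at chr16:33829665-33949338 on the plus strand. E030013I19Rik, on the opposite strand at chr2:12300946-12312315, overlaps the start of Itga8, and its own row reached at most 0.424 FPKM in any library. Cerkl, at chr2:79330543-79456785 on the minus strand, overlaps the end of Itga4, whose row runs on to 79461107. The row of Cerkl reached at most 0.950 FPKM, and Itga4 had means of 0.564, 0.863 and 1.17 in WT, Lmo2-/- and Tal1-/- Flk-1+ cells. Whether the counting used strand is not given in the sources used here. The 250 bases before the RefSeq start of Itga8, Itgb1 and Itgb5 are shown because the LMO2 complex binds DNA through TAL1 at E-boxes. It also binds through GATA factors, and the study found GATA the most enriched motif where LMO2, TAL1 and LDB1 all bound. Capitals mark each CANNTG, which reads the same on both strands.
Itga8, chr2:12301945-12302194, minus strand: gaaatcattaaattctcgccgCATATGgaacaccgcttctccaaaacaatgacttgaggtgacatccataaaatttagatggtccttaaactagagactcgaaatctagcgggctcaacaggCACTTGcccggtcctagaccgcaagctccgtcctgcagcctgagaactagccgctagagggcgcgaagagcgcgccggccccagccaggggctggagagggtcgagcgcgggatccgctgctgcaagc
Itgb1, chr8:128685404-128685653, plus strand: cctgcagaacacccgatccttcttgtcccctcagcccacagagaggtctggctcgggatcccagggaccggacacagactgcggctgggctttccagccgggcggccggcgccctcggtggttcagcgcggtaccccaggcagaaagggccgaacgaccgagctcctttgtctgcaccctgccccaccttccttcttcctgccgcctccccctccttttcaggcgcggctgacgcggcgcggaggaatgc
Itgb5, chr16:33829415-33829664, plus strand: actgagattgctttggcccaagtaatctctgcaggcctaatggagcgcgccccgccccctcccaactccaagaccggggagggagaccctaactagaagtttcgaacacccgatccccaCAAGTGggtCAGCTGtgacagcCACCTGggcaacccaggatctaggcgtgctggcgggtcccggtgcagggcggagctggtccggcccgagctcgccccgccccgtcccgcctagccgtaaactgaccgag

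The window of Itga8 held 2 copies of CANNTG, that of Itgb5 held 3 and that of Itgb1 held 0. Among all 32851 windows of this length in the RefSeq table (GRCm38.p6), 66.2% held at least 1, and 7 of the 9 windows of the 8 chains in the table did. The letters GATA, read on both strands, were in 2 of those 9 windows, both of Itga3, against 53.6% of all windows. CAGATG, read on both strands and itself a CANNTG, was in 1, that of Itga5, against 14.4%. Itga6 and Itgb3 had no entry.

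Levels were deposited as FPKM, fragment counts scaled to transcript length and library size, so that they can be compared between genes. The files give no fragment counts and the depth behind a value is unknown, but the smallest values show how much FPKM a single fragment adds. That amount was 3.78 times the median of the other 12 libraries in replicate 1 of Lmo2-/- HE1, while the others ran from 0.599 to 1.58 times. In this library 9694 genes were above 0, against 11861 to 15641 in the others, and of 1931 genes at 10 FPKM or more in all 12 others, 19 were listed at 0, against at most 3 in any other library. Over 5858 genes with a mean above 10 FPKM in Lmo2-/- HE1, its values lay by a median of 0.70 (log2 of FPKM + 1) above those of replicate 0, and this gap was 1.47 for genes whose longest transcript is under 2000 bases and 0.48 for those of 4000 bases or more. The longest transcripts of the 10 chains run from 3.28 to 9.77 kb. Differences of the chains that rest on Lmo2-/- HE1 are therefore also given without replicate 1 where they move by over 1.5 times or change direction or call. The sort genes followed the gates: Kdr, which encodes Flk-1, was between 68.7 and 275 FPKM throughout, and Tek (Tie2) and Kit were at most 2.27 and 10.7 in Flk-1+ cells and at least 121 and 42.4 in HE1. In Flk-1+ cells Lmo2 was at 21.6 to 30.8 FPKM in WT and 2.17 to 6.48 in Lmo2-/-, and Tal1 at 21.98 to 37.4 in WT and 2.74 to 3.41 in Tal1-/-. In HE1, Lmo2 was at 4.30 and 20.6 FPKM in the WT HE1 libraries and at 6.42 and 0 in the libraries labelled Lmo2-/-, so it did not separate them, and which HE1 libraries are mutant is known from their labels alone.

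Itga8 was present at a low level in Flk-1+ cells of all genotypes, nearly absent from WT HE1, and among the highest integrin chains in Lmo2-/- HE1. It measured 7.04, 3.25 and 6.26 FPKM in WT Flk-1+ cells, 4.73, 3.73 and 5.11 in Lmo2-/- Flk-1+ cells and 6.63, 6.51 and 7.95 in Tal1-/- Flk-1+ cells. Its HE1 levels were 0.631 and 0.385 FPKM for WT and 48.9 and 146 for Lmo2-/-. Both WT HE1 libraries were thus below all 9 Flk-1+ libraries and both Lmo2-/- HE1 libraries above them. The log2 difference of FPKM + 1 from WT to Lmo2-/- HE1 was 5.83 ± 0.53 (SE, n = 2 and 2), or 5.05 without replicate 1 of Lmo2-/- HE1. These values, with the fall of 2.06 from Flk-1+ cells to HE1 in WT and the rise of 3.97 in Lmo2-/-, are the pattern the family was chosen for and carry no test.

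**Figure D1:**
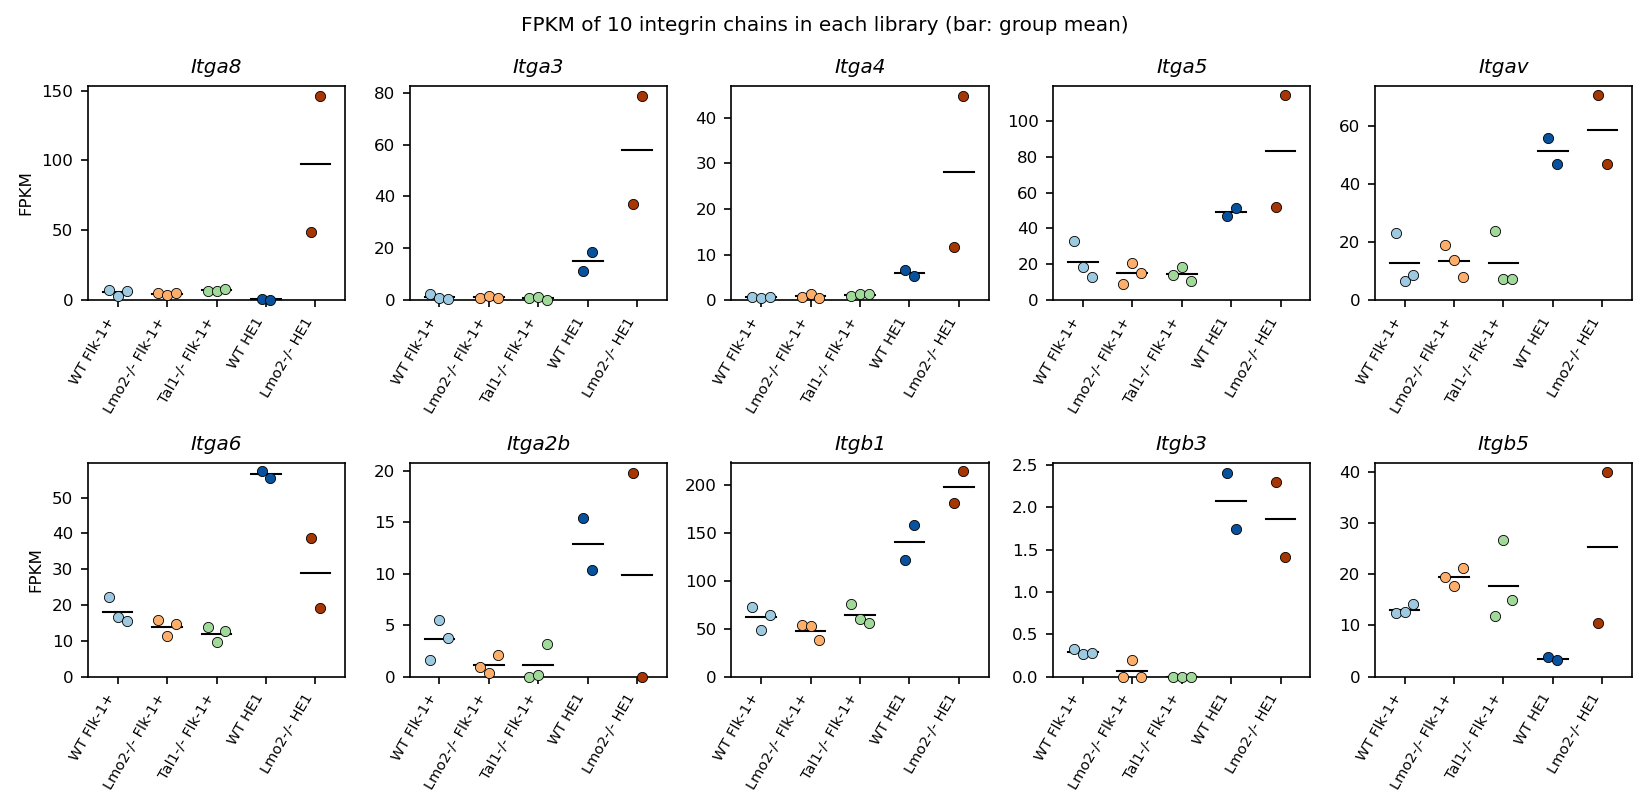
FPKM of the 10 integrin chains, 1 panel a gene with its own linear axis from 0; each point is 1 library, in replicate order from left to right, and each bar the mean of the group (n = 3 in Flk-1+ groups, n = 2 in HE1). Itga8 sat at or below 7.95 FPKM in every group but Lmo2-/- HE1, where it reached 48.9 and 146, while Itgb1 was at 38.1 or more in all 13 libraries.

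The partner of α8, Itgb1, was the highest of the 10 chains in all 5 groups and was already abundant where Itga8 was low. It measured 73.3, 48.5 and 64.9 FPKM in WT, 53.5, 52.9 and 38.1 in Lmo2-/- and 75.9, 60.1 and 56.5 in Tal1-/- Flk-1+ cells, and 122 and 159 in WT HE1. In Lmo2-/- HE1 it measured 182 and 215, above both WT libraries. The log2 difference of FPKM + 1 from WT to Lmo2-/- HE1 was 0.50 ± 0.34 (SE, n = 2 and 2), against 5.83 for Itga8, and it was 0.38 without replicate 1 but -0.07 after quantile normalisation.

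The β5 chain, which pairs with αv and binds vitronectin, showed a larger difference in HE1. Itgb5 measured 12.3, 12.7 and 14.2 FPKM in WT, 19.4, 17.8 and 21.3 in Lmo2-/- and 11.7, 26.6 and 15.0 in Tal1-/- Flk-1+ cells. In HE1 it was at 3.75 and 3.21 FPKM in WT and at 10.6 and 40.0 in Lmo2-/-. Both WT HE1 libraries lay below all others, and of the Lmo2-/- HE1 libraries 1 lay below and 1 above the Flk-1+ libraries. The log2 difference between the HE1 groups was 2.28 ± 0.54 (SE, n = 2 and 2), or 1.37 without replicate 1. Its usual partner Itgav did not show it. Itgav measured 55.8 and 47.0 FPKM in WT HE1 and 70.5 and 46.7 in Lmo2-/- HE1, with overlapping libraries and a log2 difference of 0.16 ± 0.64 (SE, n = 2 and 2). This small value had no settled sign, at 0.45 without replicate 1 of Lmo2-/- HE1, -0.13 without replicate 0 and -0.37 after quantile normalisation.

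Among the other α chains of HE1, those for laminin, fibronectin and VCAM-1 did not share 1 direction. Itga3, a laminin receptor chain, measured 11.3 and 18.7 FPKM in WT HE1 and 37.1 and 78.7 in Lmo2-/- HE1, a log2 difference of 1.82 ± 0.60 (SE, n = 2 and 2) that was 1.29 without replicate 1. Itga4, whose product with β1 binds VCAM-1 and fibronectin, measured 6.59 and 5.25 FPKM in WT and 11.6 and 44.8 in Lmo2-/-, and its difference of 1.80 ± 0.58 (SE, n = 2 and 2) was 0.87 without replicate 1. Itga5, the fibronectin receptor chain, was at 46.8 and 51.5 FPKM in WT and 51.8 and 114 in Lmo2-/-, so its Lmo2-/- libraries began where the WT libraries ended, and its difference of 0.64 ± 0.53 (SE, n = 2 and 2) was 0.07 without replicate 1. Itga6, the other laminin receptor chain, went the opposite way: it was at 57.4 and 55.6 FPKM in WT and at 38.7 and 19.04 in Lmo2-/-, a log2 difference of -1.03 ± 0.40 (SE, n = 2 and 2), or -0.54 without replicate 1.

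The αIIb and β3 chains form the platelet fibrinogen receptor. CD41, which was used as a negative marker in the HE1 sort, is the product of Itga2b, so its level in HE1 is no finding. Itga2b measured 15.4 and 10.4 FPKM in WT HE1 and 19.8 in replicate 0 of Lmo2-/- HE1, and was listed at 0 in replicate 1. Itgb3 was low throughout, at most 0.321 FPKM in Flk-1+ cells and between 1.42 and 2.41 in the 4 HE1 libraries, with a log2 difference of -0.12 ± 0.36 (SE, n = 2 and 2) between genotypes that was 0.11 without replicate 1 and 0.12 after quantile normalisation. The summed level of 8 megakaryocyte markers was at most 4.02 FPKM in any library.

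In all, 6 of the 10 chains had both Lmo2-/- HE1 libraries above both WT libraries (Itga3, Itga4, Itga5, Itga8, Itgb1 and Itgb5), where 25.9% of all genes did, and 1, Itga6, had both below, where 13.8% did. The count of 6 includes the gene the family was chosen by. It was 4 after quantile normalisation, where the share over all genes is not given, so it cannot be set against 25.9%. Without replicate 1, Lmo2-/- HE1 is left with 1 library, and no count is given. The median log2 difference was 0.57 over the 10 chains and 0.15 over all 13802 genes.

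The make-up of the 7 listed α chains in HE1 differed with genotype. Outside these sums were Itga1, at means of 34.5 FPKM in WT HE1 and 25.0 in Lmo2-/- HE1, and Itga9, at 13.4 and 20.4. The shares and sums therefore hold among the 7 listed α chains alone. Itga8 made up 0.325% and 0.204% of the summed FPKM of the 7 α chains in WT HE1 and 17.6% and 32.5% in Lmo2-/- HE1, against 6.27% to 18.4% in the 9 Flk-1+ libraries. Itga6 made up 29.6% and 29.4% of the sum in WT HE1 and 13.9% and 4.24% in Lmo2-/- HE1. The sum of the other 6 α chains was 193 and 188 FPKM in WT and 229 and 303 in Lmo2-/- HE1. The sum of all 7 was 0.740 to 1.23 times the level of Itgb1 in Flk-1+ libraries, 1.59 and 1.19 times in WT HE1 and 1.53 and 2.09 times in Lmo2-/- HE1, so that 1 of the 2 mutant libraries lay within the WT range.

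**Figure D2:**
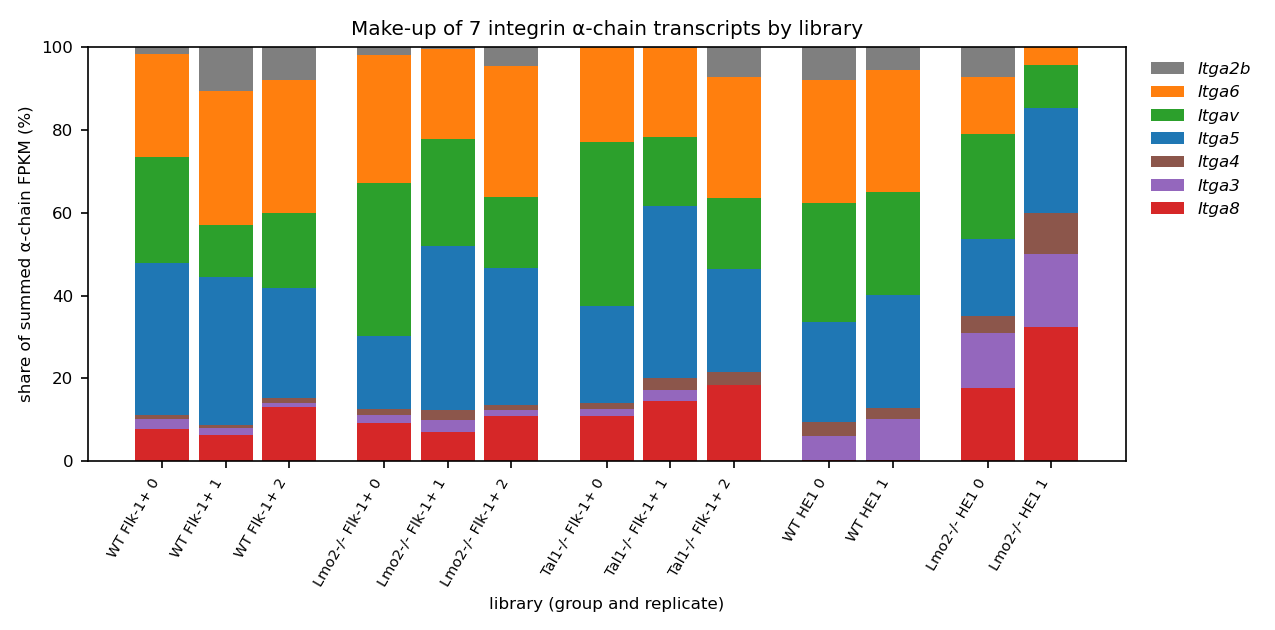
Share of each of 7 α-chain genes in their summed FPKM (%), 1 stacked bar a library, ordered by group and replicate. Itga8 took 17.6% and 32.5% of the bar in the Lmo2-/- HE1 libraries and 0.325% and 0.204% in WT HE1, and Itga6 took less in both Lmo2-/- HE1 libraries than in WT HE1.

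In Flk-1+ cells the chains were tested in 3 comparisons that share libraries, to ask whether integrin levels already differ by genotype before HE1. The fit was limma on log2(FPKM + 1) over all 13 libraries, and a gene was called where its Benjamini-Hochberg adjusted p was below 0.05 and its mean FPKM above 10 in 1 of the groups. From WT to Lmo2-/- Flk-1+ cells 0 of 10 chains were called, where 0% of all genes were. From WT to Tal1-/- Flk-1+ cells it was again 0 of 10, beside 0% of all genes, and from Lmo2-/- to Tal1-/- 0 of 10, beside 0.0145%. No chain had an unadjusted p below 0.05 in any of the 3, where 2.22%, 6.11% and 5.96% of all genes had one. Itga8 differed by -0.20 ± 0.44 from WT to Lmo2-/-, by 0.35 ± 0.44 from WT to Tal1-/- and by 0.54 ± 0.44 from Lmo2-/- to Tal1-/- (log2 of FPKM + 1, SE, n = 3 and 3), and only in the last did its libraries not overlap. The differences of the 10 chains ran from -1.12 (Itga2b) to 0.54 (Itgb5), from -1.37 (Itga2b) to 0.48 (Itga4) and from -0.32 (Itga3) to 0.54 (Itga8), with standard errors between 0.28 and 0.91. From WT to Lmo2-/- all 3 libraries of Itgb5 were higher and all of Itgb3 lower, where 3.99% of all genes were wholly higher and 4.22% wholly lower. From WT to Tal1-/- Itga4 was wholly higher and Itga6 and Itgb3 wholly lower, beside 5.25% and 7.4% of all genes, and from Lmo2-/- to Tal1-/- Itga8 and Itgb1 were wholly higher and 0 chains wholly lower, beside 6.59% and 6.66%. The comparisons with WT did not call even Lmo2 or Tal1, the genes knocked out, so 0 of 10 there is not particular to the chains. The study, using Cuffdiff on reads, did report genes that differed between WT and Lmo2-/- Flk-1+ cells. A p that misses the threshold with these errors does not show that the levels are alike.

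The order of the chains in Flk-1+ cells was similar in the 3 genotypes. Itgb1 came first with no overlap with the next chain. Below it, Itga5, Itga6, Itgav and Itgb5 had group means between 12.02 and 21.5 FPKM, and most neighbours among these 4 overlapped. Itga8 was the sixth in each genotype, at means of 5.52 ± 2.0, 4.52 ± 0.71 and 7.03 ± 0.80 FPKM (SD, n = 3) in WT, Lmo2-/- and Tal1-/-. Itga2b, Itga3 and Itga4 had means of at most 3.64 FPKM and Itgb3 was the last. In WT HE1 the order was Itgb1, then Itga6, Itgav and Itga5, which overlapped each other, then Itga3 and Itga2b, which overlapped, then Itga4, Itgb5, Itgb3 and Itga8, each clear of the next. In Lmo2-/- HE1 Itga8 was the second, and from there to the tenth, Itgb3, every neighbour overlapped the next.

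The step from Flk-1+ cells to HE1 was tested within each genotype for the 9 chains other than Itga8. Itga2b is among these although HE1 was sorted on its product, so its values over the step are no finding. Most chains were higher in HE1, but Itgb5 was lower in WT, where it was called down in 8 of 19 alternatives. In the main fit of WT, 4 of 9 chains were called up and 0 down, beside 6.98% of all genes called, 6.04% up and 0.942% down. They were Itga3 (from 1.20 ± 0.93 to 15.0 ± 5.2 FPKM), Itga6 (18.1 ± 3.6 to 56.5 ± 1.3), Itgav (12.8 ± 9.1 to 51.4 ± 6.2) and Itgb1 (62.2 ± 12.6 to 140 ± 26; SD, n = 3 and 2). Their log2 differences of FPKM + 1 were 2.91 ± 0.55 for Itga3, 1.60 ± 0.37 for Itga6, 2.11 ± 0.58 for Itgav and 1.17 ± 0.31 for Itgb1 (SE), with adjusted p from limma of 0.0048, 0.015, 0.037 and 0.032. Itga4 and Itgb3 also passed on the adjusted p from limma, at 0.022 and 0.032, but stayed under 10 FPKM. This makes 6 of 9 on the p alone, beside 9.74% of all genes. Itgb3 passed the filter on low values only through HE1 libraries, which favours a rise, so it adds no support to that count. Itga5 (a difference of 1.26 ± 0.48) and Itga2b (1.66 ± 1.02) were not called, at adjusted p of 0.12 and 0.35. Itgb5 differed by -1.65 ± 0.49, with both HE1 libraries below all 3 Flk-1+ libraries and an adjusted p of 0.052 that ran from 0.0046 to 0.21 over the alternatives. Counting Itga8 and Itgb3, 8 of the 10 chains had both HE1 libraries above all 3 Flk-1+ libraries. Both lay below for 2 chains, where 27.6% of all genes were above and 17.2% below. With libraries left out, 4 chains were called without WT Flk-1+ replicate 0, 5 (Itgb5 down besides) without either Lmo2-/- HE1 library, 1 (Itga3) without WT Flk-1+ replicate 1, without WT Flk-1+ replicate 2 or without WT HE1 replicate 0, and 0 without WT HE1 replicate 1. After quantile normalisation 2 were called, Itga3 up and Itgb5 down.

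In Lmo2-/- cells 5 of 9 chains were called up and 0 down over the same step, beside 19.6% of all genes called, 17.2% up and 2.38% down. Itga3 rose from 1.04 ± 0.44 to 37.1 and 78.7 FPKM, a log2 difference of 4.78 ± 0.55 (SE) with an adjusted p from limma of 0.00012. Itga4 rose by 3.71 ± 0.53 from a mean of 0.86 FPKM (adjusted p = 0.00052), Itgb1 by 2.03 ± 0.31 (0.00078), Itga5 by 2.35 ± 0.48 (0.0038) and Itgav by 2.09 ± 0.58 (0.020). Itga6, with a difference of 0.92 ± 0.37, had an adjusted p of 0.083, and Itgb5, with 0.09 ± 0.49, one of 0.91. Itgb3 passed on the adjusted p from limma, at 0.0084, and stayed under 10 FPKM. This makes 6 of 9 on the p alone, beside 25.5% of all genes. As in the WT step, Itgb3 adds no support to that count, since only HE1 libraries took it past the filter. Counting Itga8 and Itgb3, 8 of the 10 chains had both HE1 libraries above all 3 Flk-1+ libraries. Both lay below for 0 chains, where 31.9% of all genes were above and 15.1% below. Leaving out an Lmo2-/- HE1 library leaves 1 in the group, so only differences are given. Without replicate 1 they were 4.24 for Itga3, 2.78 for Itga4, 1.91 for Itgb1, 1.79 for Itga5 and 2.38 for Itgav. Itga6 then stood at 1.42, Itgb5 at -0.82 and Itga2b at 3.39. The CD41 sort acted on the product of Itga2b, so its value is no finding. Without replicate 0 Itgav was at 1.80. After quantile normalisation 2 were called, Itga3 and Itga4, and Itgb5 stood at -0.85.

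The median log2 difference of the 10 chains over the step, Itga8 included, was 1.43 in WT and 2.06 in Lmo2-/-, against 0.11 and 0.30 over all genes. Quantile normalisation moved the medians over all genes to -0.04 and 0.02. Itga3, Itgav and Itgb1 were called in both genotypes. Itga6 was called only in WT, and Itga4 and Itga5 only in Lmo2-/-, but whether the step differed between genotypes was not tested, because that difference contains the HE1 comparison the family was chosen on.

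**Figure D3:**
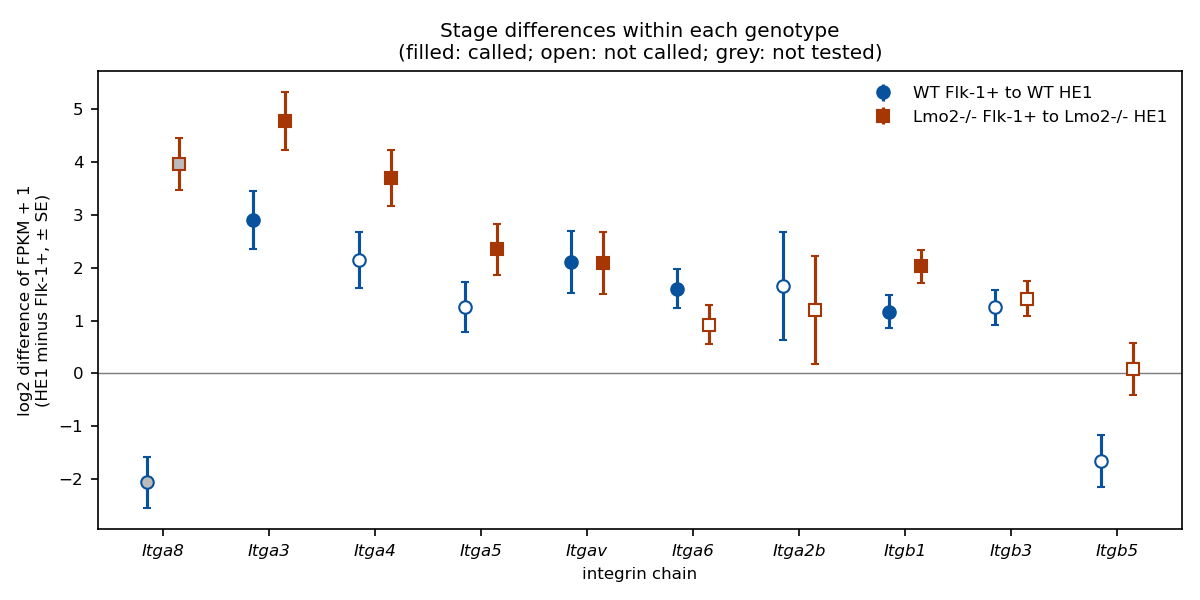
Log2 difference of FPKM + 1 from Flk-1+ cells to HE1 for each chain, within WT (circles) and within Lmo2-/- (squares), with the standard error of the fit; filled symbols are called, open ones not, and grey ones (Itga8) were not tested. Itga8 lay at -2.06 in WT and 3.97 in Lmo2-/-, and Itgb5 at -1.65 and 0.09, while the other 8 chains lay above 0 in both.

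Of the 16 integrin chains outside the list, 6 passed the filter and 2 had a group mean above 10 FPKM. Itga1, a collagen receptor chain that also pairs with β1, measured 32.8 and 36.2 FPKM in WT HE1 and 25.3 and 24.7 in Lmo2-/- HE1, against 0.352 to 3.88 in the 9 Flk-1+ libraries. It rose by 3.73 ± 0.50 in WT and by 3.71 ± 0.50 in Lmo2-/- (log2 of FPKM + 1, SE; adjusted p from limma = 0.00048 and 0.00036) and was called under every alternative in both. Itga9, whose product binds tenascin C, was between 4.998 and 28.5 FPKM in the 13 libraries and was called in none of the comparisons tested. Of the lower chains, Itga11 measured 0 and 0.618 FPKM in WT HE1 and 2.74 and 8.36 in Lmo2-/- HE1. Itgb8 was at 0 and 0.336 in WT and at 1.08 and 1.56 in Lmo2-/- HE1. Itga2 went the other way, from 2.72 and 3.40 in WT to 0.399 and 0 in Lmo2-/- HE1. Each passed the filter only through the HE1 group where it was high, so these values carry no test. The leucocyte chains Itgal, Itgam, Itgax and Itgb2 had group means of at most 1.56 FPKM.

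Of 25 genes of the cytoplasmic side of adhesions 23 passed the filter, and of these 7 rose and 1 fell in WT over the step to HE1, beside 6.04% and 0.942% of all genes, and 11 rose and 0 fell in Lmo2-/-, beside 17.2% and 2.38%. The largest rises in WT were those of Parva, a parvin that ties integrin-linked kinase to actin, which went up by 3.72, of Cib1, which binds the αIIb tail, by 2.92, and of Ptk2, focal adhesion kinase, by 2.12. The fall was that of Tln2, the other talin gene (-2.52). Cib1 was listed at 0 in both Lmo2-/- HE1 libraries. In Lmo2-/- Flna, filamin A, rose by 3.30, Parva by 3.29 and Tln1, the talin that activates integrins, by 3.20, values that were 3.36, 2.98 and 3.09 without HE1 replicate 1. The median over the list was 1.28 in WT and 1.21 in Lmo2-/-. The counts of rising genes fell to 3 and 5 after quantile normalisation, in WT to 3 without Flk-1+ replicate 1, to 4 without Flk-1+ replicate 2 and to 2, with no fall, without either HE1 replicate, and in Lmo2-/- to 7 with array weights.

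Of 17 ligand genes 11 passed the filter, and 4 rose and 0 fell in each genotype, beside 6.04% of all genes rising in WT and 17.2% in Lmo2-/-. They were Tnc (tenascin C), Fbn1 (fibrillin), Thbs1 (thrombospondin) and Emilin1. Thbs1, at most at 0.659 FPKM in Flk-1+ cells, passed the filter only through HE1 libraries. That favours a rise, so Thbs1 adds no support to the count. In WT the largest rises were 4.46 ± 0.61 for Tnc, 4.45 ± 0.43 for Fbn1 and 4.37 ± 0.52 for Thbs1, and in Lmo2-/- 4.37 ± 0.52 for Thbs1, 3.88 ± 0.67 for Emilin1 and 3.42 ± 0.61 for Tnc (log2 of FPKM + 1, SE). In Lmo2-/- the rise of Tnc was 4.65 without HE1 replicate 1 and 2.19 without replicate 0, and that of Thbs1 5.25 and 3.48, and all 4 genes were called in both fits. Of the α8 ligands, Tnc was at 55.2 and 47.3 FPKM in WT HE1 and at 105 and 18.1 in Lmo2-/- HE1, and Npnt (nephronectin) at most at 2.52 in any library. Fn1 (fibronectin) was the most abundant ligand, at 610 FPKM or more in every library, and Vtn (vitronectin) was listed at 0 in all 13.

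The genes whose profile was most like that of Itga8 over the 13 libraries were ranked by Pearson's r of log2(FPKM + 1), with no test, since the samples share genotype, stage and library. Sema5a, a semaphorin, came first with r = 0.982 and measured 0.91 and 0.92 FPKM in WT HE1 and 26.1 and 76.4 in Lmo2-/- HE1. It was followed by Dsc2 (a desmocollin, r = 0.945), Piezo2 (a mechanically gated channel, 0.932), Slit3 (a guidance ligand, 0.930), Kif5c (a kinesin, 0.927), Pogk, Sdk1, Igsf3, Cnksr2 and Pdgfrb, the PDGF receptor of pericytes and mesenchyme, at 0.916 to 0.924. In the 9 Flk-1+ libraries alone, r of these 10 genes with Itga8 ran from -0.18 (Slit3) to 0.74 (Pogk), so the likeness of several lay in the 4 HE1 libraries. Without Lmo2-/- HE1 replicate 1, r ran from 0.82 to 0.96. No integrin chain was among them. Of the listed chains the nearest was Itgb5, at r = 0.67 and rank 1048 of the tested genes. Itga4 followed at 0.57, whereas Itgb1 stood at 0.41 and Itga6 at -0.21. For the integrin chains outside the list r is not given.

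**Figure D4:**
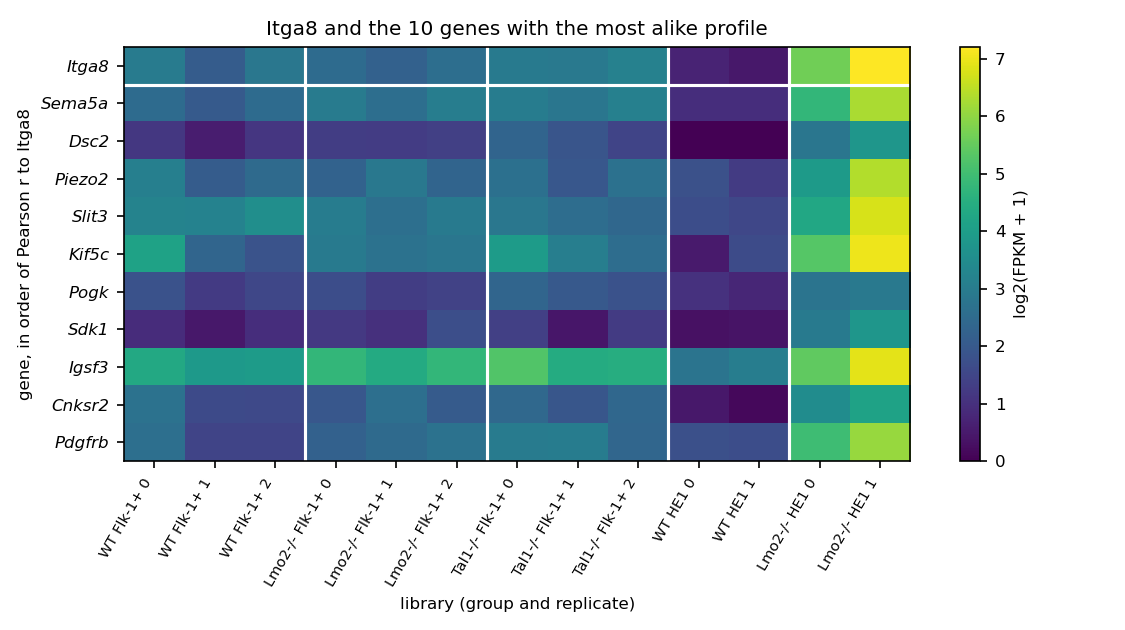
Level of Itga8 and the 10 genes with the highest Pearson r to it, as log2(FPKM + 1) on a colour scale from 0, 1 column a library. All of these genes were lower in both WT HE1 libraries than in both Lmo2-/- HE1 libraries; Itga8 itself went from at most 0.631 FPKM to at least 48.9.

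Marker lists of other cell types differed between the HE1 groups to unlike degrees. The median log2 difference from WT to Lmo2-/- HE1 was 2.94 over the 10 mesenchyme markers, against 0.15 over all genes. Over the markers that passed the filter it was 0.28 for 6 of smooth muscle, 0 for 6 cardiac and -1.25 for 9 endothelial ones. The summed FPKM of 10 mesenchyme markers was 36.5 and 41.8 in WT HE1 and 249 and 927 in Lmo2-/- HE1, against 35.2 to 85.2 in Flk-1+ libraries. Pdgfrb was at 2.38 and 2.28 FPKM in WT and 30.3 and 67.7 in Lmo2-/- HE1, and Postn (periostin) at 19.97 and 12.4 and at 99.7 and 372, whereas Prrx1 was at most at 1.25 in HE1 and Thy1 was listed at 0 in all 4. Of 10 smooth muscle markers the sum was 205 and 247 FPKM in WT HE1 and 357 and 882 in Lmo2-/- HE1, most of it Acta2. Myh11 was at most at 0.617 and Cnn1 at most at 0.853. In replicate 1 of Lmo2-/- HE1, which gave the sum of 882, 6 of these 10 markers were listed at 0. Of 8 cardiac markers the sum was 12.3 to 26.8 FPKM in WT and 129 to 210 in Lmo2-/- HE1, but nearly all of the difference was Hand1, at 17.7 and 2.96 in WT and 117 and 210 in Lmo2-/-. Of the contractile genes on that list Tnnt2 was at most at 7.80 in HE1 and Actc1 at most at 5.32, and Myl4 was listed at 0 in all 4 HE1 libraries. The 10 endothelial markers summed to 992 and 1122 FPKM in WT and to 654 and 864 in Lmo2-/- HE1, with Cdh5 (VE-cadherin) at 281 or more in all 4 libraries, Cldn5 at most at 1.07 and Emcn listed at 0 in both Lmo2-/- libraries. Haematopoietic markers summed to at most 14.1 FPKM and pluripotency markers to at most 3.75 in HE1. Whether other cells in the sort hold part of the Itga8 or other integrin transcripts was not tested, and in bulk samples a change in the share of a cell type and a change in RNA per cell cannot be told apart.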

How the data were processed

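RNAseq libraries were made with a stranded mRNA kit. The authors aligned the reads to GRCm38 (mm10) with TopHat2 2.0.9 and assembled transcripts with Cufflinks 2.0.0. They deposited FPKM per library from Cuffnorm, which are used here, and pooled FPKM per group from Cuffdiff 2.0.1, which are not used. Their table of fold changes and p-values was not used, and 0 per-sample columns were left out. ChIP and DNase data were not analysed here.

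Genes with at least 1 FPKM in at least 2 libraries and a locus over 200 bp were tested, 13802 in all. Their log2(FPKM + 1) values in the 13 libraries entered 1 limma model (version 3.58.1, R 4.3.3) with a trend of variance on level and two-sided tests, with Benjamini-Hochberg adjustment over all genes. A fold change on this scale understates the change of low genes. Python 3.11.15 with pandas 2.3.3 and matplotlib 3.10.9 did the rest, and the fit was tested on simulated data. Positions are from GENCODE M21. The depth per library is not in the files, so no interval or floor is given.

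The chains, gene lists and tests were chosen with earlier results of these data known, so they are no independent evidence. Named were the 10 chains, the 10 genes most like Itga8, other chains with a group mean above 10 FPKM, up to 3 called genes a list, direction and comparison, and the sort genes. Npnt, Fn1, Vtn, Itga2, Itga11, Itgb8, the leucocyte chains and single cell type markers were named after their values were seen. Alternatives were a pseudocount of 0.1, 2 other filters, no FPKM criterion, quantile normalisation, array weights, fits of the groups compared alone, a block for the replicate number, and leaving out each of the 13 libraries in turn.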

Additional observations from a re-analysis of the deposited data

Results flagged for a closer look

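Itga8 went in opposite directions from Flk-1+ cells to HE1 in the 2 genotypes: by -2.06 (log2 of FPKM + 1) in WT, where both HE1 libraries lay below all 3 Flk-1+ libraries, and by 3.97 in Lmo2-/-, where both lay above. The difference was not tested, because it holds the comparison for which the gene was chosen. No group had the 4 to 10 libraries that a search for single outlying libraries needs.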

How the results depend on the processing

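In the 3 comparisons of Flk-1+ cells 0 chains were called under every alternative. In the main fit 0% of all genes were called in the comparisons with WT, so a count of 0 there is not particular to the chains. With the replicate number as a block in these comparisons the count was also 0. Same-numbered libraries deviated together with correlations from -0.18 to 0.17, not all above 0.1, and no source says that the numbers pair them. A fit of the Flk-1+ libraries without the block, added after seeing the data, gave 0 as well. In the WT step to HE1 the count of 4 was 2 after quantile normalisation and 0 to 5 with 1 library left out. In the Lmo2-/- step the count of 5 was 2 after quantile normalisation and 4 without Lmo2-/- Flk-1+ replicate 2, where Itgav was not called. With array weights, Itga5 (up) and Itgb5 (down) were called besides in the WT step, and Itgav was no longer called in the Lmo2-/- step. The cause of these changes was not tested.

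After quantile normalisation Itgb5 in the Lmo2-/- step was -0.85, Itgb1 between the HE1 groups -0.072, Itgav -0.37 and Itgb3 0.12 there, and Itga2b from Lmo2-/- to Tal1-/- 0.021. With array weights the value for Itga3, WT against Lmo2-/- in Flk-1+ cells, was 0.10, Itgav from WT to Tal1-/- 0.17 and Itga5 from Lmo2-/- to Tal1-/- 0.0013. With 1 library left out, the log2 difference ran from -0.99 to 3.39 for Itga2b and from -0.82 to 1.00 for Itgb5 in the Lmo2-/- step. Between the HE1 groups it ran from -3.77 to 0.61 for Itga2b, -0.13 to 0.45 for Itgav and -0.34 to 0.11 for Itgb3. From WT to Lmo2-/- Flk-1+ cells it ran from -0.29 to 0.27 for Itga3 and from -0.16 to 0.68 for Itgav. From WT to Tal1-/- it ran from -0.54 to 0.49 for Itgav and from -0.11 to 0.18 for Itgb1. From Lmo2-/- to Tal1-/- it ran from -0.90 to 0.13 for Itga2b, -0.53 to 0.030 for Itga3, -0.32 to 0.24 for Itga5, -0.72 to 0.074 for Itgav, -0.13 to 0 for Itgb3 and -0.52 to 0.038 for Itgb5. HE1 has 2 libraries a group, so leaving 1 out assumes that the other varies like the rest.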

Other observations

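The Flk-1+ groups differed in the other gene lists by values that no test called. The summed level of the 10 endothelial markers was 52.1 to 93.4 FPKM in WT, 38.6 to 58.3 in Lmo2-/- and 4.16 to 15.5 in Tal1-/- Flk-1+ cells, and that of the 10 haematopoietic markers 13.3 to 24.1, 4.97 to 7.99 and 4.17 to 7.25. The 16 other integrin chains summed to 16.9 to 26.2 FPKM in WT, 17.2 to 26.7 in Lmo2-/- and 12.2 to 32.2 in Tal1-/-, ranges that overlap. Frem1, a basement membrane ligand of α8, was at 3.86 and 1.28 FPKM in WT HE1 and at 28.7 and 71.0 in Lmo2-/- HE1, and at 1.99 to 33.8 in the 9 Flk-1+ libraries. It was singled out after its values were seen, and its HE1 difference carries no test, since it comes from the comparison on which the family was chosen.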
